A study of Drosophila melanogaster with 3 samples.

Results

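The autophagy (Atg) genes and the genes for subunits of the vacuolar H+-ATPase (Vha) were compared between ovaries with an sva53 mutant germ line and ovaries with an sva53/+ germ line of Drosophila melanogaster. Members were the genes whose platform symbol begins with Atg and a digit or with Vha, taken from features that name a single gene. This gave 45 of 10805 genes, namely 19 autophagy genes, 15 genes of the V0 sector and 11 genes of the V1 sector, measured by 79 features. Another 8 RefSeq genes with such names were not analysed here, among them Atg16 and the A subunit genes Vha68-1 and Vha68-2.

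RNA of ovaries from sva53 flies, labelled with Cy3, was hybridised on each of 3 Agilent 2-colour arrays together with RNA of ovaries from sva53/+ flies, labelled with Cy5. The mutant germ line descended from pole cells of embryos made by germline clones homozygous for sva53[M1] with the FLP/FRT/DFS system, and the control germ line from pole cells of sva53/+ embryos. Both kinds of pole cells were placed into host embryos laid by osk-homozygous females, so follicle cells and all other somatic cells of the ovary were host cells in both groups. Flies were about 7 days old. Each mutant pool held 2 pairs of ovaries from an independent experiment (n = 3), whereas the control was 1 RNA from 3 pairs that was used on all 3 arrays. The test therefore leaves out the spread of the control, and any deviation of that 1 RNA enters every array alike.

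Values are log2 ratios of sva53 over sva53/+. Which dye stands on top of the deposited ratio is not in the labels, so this direction is likely and rests on red over green, the usual order of the software. With green over red, every sign and every word of direction below turns. A feature was called where its adjusted p was under 0.05 in limma across 15415 features, and 13.9% of them were called, 6.62% higher and 7.23% lower. A gene that did not pass is not thereby shown to be unchanged. Cy3 always labelled the mutant, so a bias of either dye at a feature stays in its ratio. The ratios hold no signal levels, so the tissue could not be checked against its markers, and fewer cells of a type cannot be told apart from less RNA per cell.

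Autophagy carries cytoplasm to the lysosome in a double membrane. A kinase complex starts the process, a lipid kinase and lipid carriers build the membrane, and a pair of ubiquitin-like conjugation systems attach Atg8 to it. The V-ATPase is the proton pump that acidifies lysosomes, in which the cytosolic V1 sector hydrolyses ATP and the membrane V0 sector carries the protons. In the fly ovary, autophagy takes part in the death of germline cells during oogenesis, and the V-ATPase of follicle cells around the nurse cells helps to acidify and clear them late in oogenesis.

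In the V1 sector, subunit genes lay mostly below the control in sva53 ovaries, with 1 exception. Of 11 genes, 10 had a mean below 0, against 50.5% of all features, and 8 were below 0 on all 3 arrays, against 29.9% of all features. Vha44 and Vha36-1 fell, Vha14-2 rose and 8 genes did not pass. The share called was thus 27.3%, over few genes, beside 13.9% of all features. The median over the V1 genes was -0.14, against -0.0031 over all features, and it was -0.13, -0.19 and -0.17 on arrays 1, 2 and 3. These ratios share 1 control RNA, so a common sign is not independent from array to array.

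**Figure D1:**
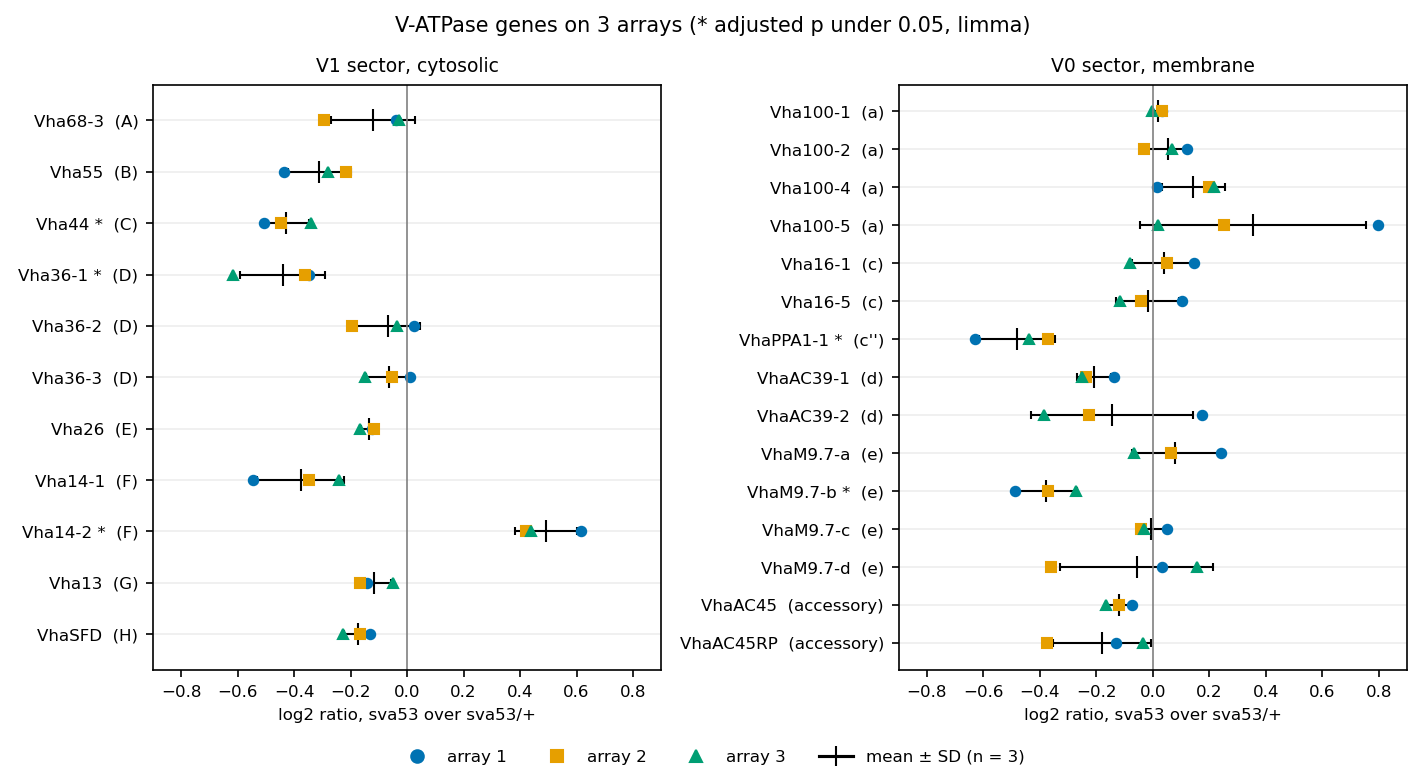
Log2 ratio of sva53 over sva53/+ (x axis) for each V-ATPase gene, with the V1 sector in the left panel and the V0 sector in the right, the subunit in brackets, points for the 3 arrays and a bar for the mean ± SD. In V1 the means lie left of 0 except that of Vha14-2 at 0.49, while in V0 the genes spread to both sides and VhaPPA1-1 is lowest at -0.48.

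Vha44, the C subunit of the V1 sector, read -0.51, -0.45 and -0.34 on arrays 1, 2 and 3. All pools were below the control, and the mean was -0.43 ± 0.085 (SD, n = 3; 1.35-fold lower, 95% interval -0.59 to -0.27, adjusted p 0.0357 with limma). Its 3 features gave -0.46, -0.45 and -0.39, so separate probes of this transcript gave similar values.

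Vha36-1, a D subunit of the central rotor, read -0.35, -0.36 and -0.62. It fell, with a mean of -0.44 ± 0.15 (SD, n = 3; 1.36-fold lower, 95% interval -0.66 to -0.22, adjusted p 0.0448 with limma), with features at -0.22 and -0.66. Its paralogs Vha36-2 and Vha36-3 averaged -0.069 ± 0.11 and -0.065 ± 0.08 and did not pass. On each array both paralogs lay above the average of the Vha36-1 features, by means of 0.37 and 0.38 log2. Its feature at -0.22 read -0.13 on array 2, above Vha36-2 at -0.19 there.

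The F subunit genes lay on opposite sides of 0. Vha14-2 read 0.62, 0.42 and 0.44, with all pools above the control, and its mean was 0.49 ± 0.11 (SD, n = 3; 1.41-fold higher, 95% interval 0.31 to 0.67, adjusted p 0.0352 with limma). Vha14-1 read -0.54, -0.35 and -0.24, all below the control, and its mean of -0.38 ± 0.15 did not pass (adjusted p 0.0561 with limma). The difference of Vha14-2 minus Vha14-1 was 1.16, 0.77 and 0.68 log2 on the 3 arrays, with a mean of 0.87 ± 0.26. An exact 2-sided sign-flip test over 3 arrays cannot go below 0.25, the value reached here.

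The call of Vha14-2 rests on features that varied more than their average. One feature read 1.23, 0.30 and 0.15 (SD 0.59) and the other 0, 0.55 and 0.72 (SD 0.38), so the small SD of the gene came from averaging. The 0 was an exact zero in the deposited table, and whether such a zero is a measured ratio is not known. With exact zeros removed the mean was 0.70 and the gene was not called, nor was it with the feature of smallest SD. Both features of Vha14-1, by contrast, were below 0 on every array, at means of -0.35 and -0.41.

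The other V1 genes had means below 0 and did not pass. Vha55, the B subunit of the catalytic head, read -0.43, -0.22 and -0.28, with a mean of -0.31 ± 0.11 (adjusted p 0.0568 with limma) and 3 features from -0.40 to -0.16. VhaSFD, the regulatory H subunit, read -0.13, -0.17 and -0.23, with a mean of -0.17 ± 0.05. Its features gave -0.30 and -0.052, and the second was above 0 on arrays 1 and 2. Vha26, the E subunit of the peripheral stalks, read -0.12, -0.12 and -0.17, but this small spread hid features at -0.40 and 0.13, the widest gap among all members. Vha13, the G subunit of the same stalks, read -0.14, -0.17 and -0.05, again with features of opposite sign, at -0.28 and 0.038. Vha68-3, the A subunit gene measured, read -0.04, -0.29 and -0.029 and averaged -0.12 ± 0.15.

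**Figure D2:**
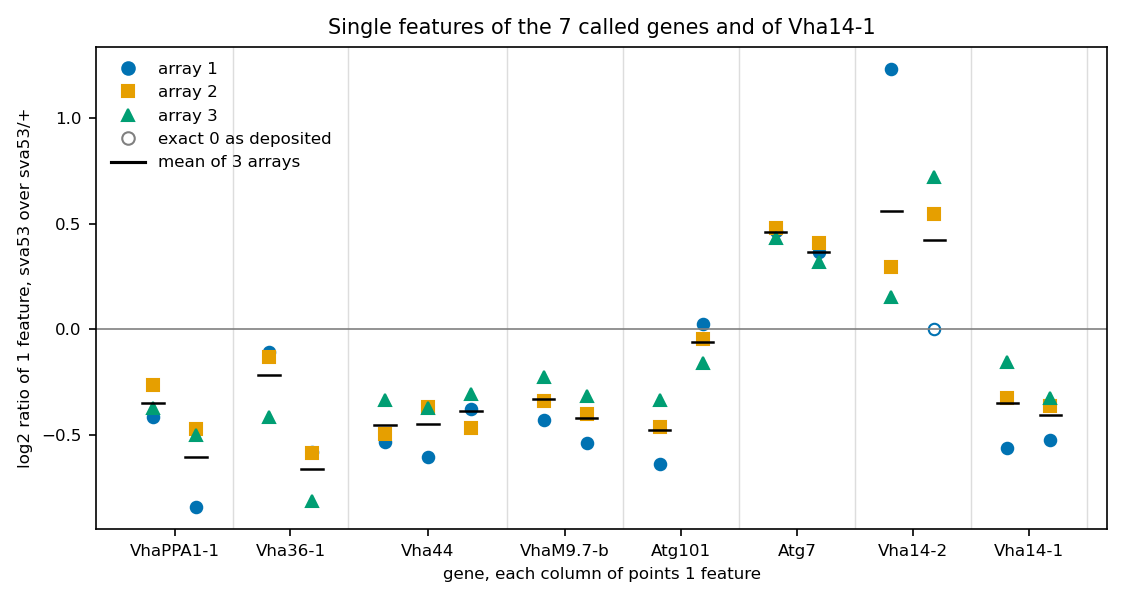
Log2 ratio of sva53 over sva53/+ (y axis) for each single feature of the 7 called genes and of Vha14-1, where points are the 3 arrays, a line is the mean and an open point is an exact 0 as deposited. The 3 features of Vha44 sit close together, while those of Vha14-2 scatter from 0 to 1.23 and the second feature of Atg101 lies near 0 at -0.062.

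In the V0 sector, 2 of 15 genes fell, 0 rose and 13 did not pass (13.3% called, beside 13.9% of all features). VhaPPA1-1 and VhaM9.7-b were the genes that fell. The median of the sector was -0.018, and 9 of 15 means lay below 0. The share below 0 on all 3 arrays was 33.3% (5 of 15), near the 29.9% of all features.

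VhaPPA1-1, the c'' subunit of the proton-carrying ring, read -0.63, -0.37 and -0.44, the lowest mean of all members. All pools were below the control, with a mean of -0.48 ± 0.13 (SD, n = 3; 1.39-fold lower, 95% interval -0.68 to -0.28, adjusted p 0.0382 with limma) and features at -0.35 and -0.61. Among the c subunit genes of the same ring, Vha16-1 read 0.14, 0.052 and -0.081 (mean 0.038, 95% interval -0.14 to 0.22). Vha16-5 averaged -0.018 ± 0.11, and neither passed.

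VhaM9.7-b, one of 4 measured genes for the small e subunit, read -0.49, -0.37 and -0.27. It fell, with a mean of -0.38 ± 0.11 (SD, n = 3; 1.30-fold lower, 95% interval -0.55 to -0.20, adjusted p 0.0431 with limma), and its features gave -0.33 and -0.42. VhaM9.7-a, VhaM9.7-c and VhaM9.7-d averaged 0.079, -0.007 and -0.058 and did not pass. On every array VhaM9.7-b lay below each of them, but below VhaM9.7-d by only 0.009 log2 on array 2. The mean difference of VhaM9.7-b from VhaM9.7-a was -0.46 log2, while VhaM9.7-c and VhaM9.7-d exceeded it by 0.37 and 0.32 log2. The mean of VhaM9.7-c hid features of opposite sign, at 0.18 and -0.19. One of the 2 features of VhaM9.7-a was exactly 0 on all 3 arrays, so its mean is pulled towards 0, and the other feature averaged 0.16.

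The large a subunit, which anchors the stalks and directs the pump to its membrane, had 4 measured genes and none was called. Vha100-5 read 0.80, 0.25 and 0.017 on arrays 1, 2 and 3. Its mean of 0.35 ± 0.40 was carried by array 1, and without that array it was 0.13. Vha100-1 and Vha100-2 averaged 0.02 (95% interval -0.11 to 0.15) and 0.053 (95% interval -0.10 to 0.21). Vha100-4, which lies next to Vha100-2 in the RefSeq gene order, averaged 0.14 ± 0.11.

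VhaAC39-1, a d subunit that joins the rotor to the ring, read -0.14, -0.24 and -0.25. Its mean of -0.21 ± 0.06 did not pass (adjusted p 0.0732 with limma), although all pools lay below the control. Its paralog VhaAC39-2 read 0.17, -0.22 and -0.38, so its pools fell on both sides of 0. The accessory genes VhaAC45 (-0.12 ± 0.05) and VhaAC45RP (-0.18 ± 0.17; -0.13, -0.37 and -0.036 on the 3 arrays) did not pass either.

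The pump genes were also split by a recalled list. It is not a comparison of paralogs, since Vha55, Vha44, Vha26, Vha13, VhaSFD and VhaPPA1-1 are each the only measured gene of their subunit. The subunit genes recalled as those of the plasma membrane pump of fly epithelia such as the Malpighian tubule are Vha100-2, VhaAC39-1, Vha16-1, VhaPPA1-1, VhaM9.7-b, Vha55, Vha44, Vha36-1, Vha26, Vha14-1, Vha13 and VhaSFD among those measured. Of these 12, 10 were below 0 on all 3 arrays, and 4 fell and 0 rose, with a median of -0.26, beside 29.9% of all features below 0 on all 3 arrays and 7.23% called lower. Of the other 14 V-ATPase genes, 3 were below 0 on all 3 arrays, and 0 fell and 1 rose (6.62% of all features were called higher), with a median of -0.038. This grouping was made after the values were seen and carries no test. Every V-ATPase gene called lower is among the 12, so that 0 of the others fell was set by the choice. The 12 also include all V1 genes below 0 on all 3 arrays except Vha68-3, so they largely repeat values already counted for V1. Among 18 pairs of paralogs of 1 subunit and 3 pairs among autophagy genes, 9 of 21 differences had 1 sign on all 3 arrays, and no exact p could be under 0.25. As ratios, 29.9% of all features were below 0 and 28.9% above 0 on all 3 arrays. Several pairs share a gene, such as VhaM9.7-b or Vha36-1, so the differences are not separate observations.

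**Figure D3:**
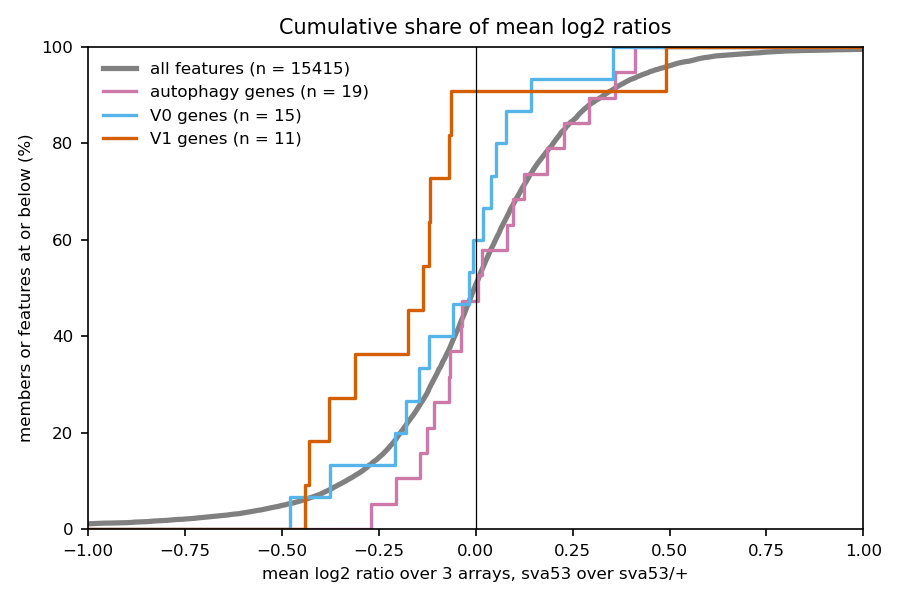
Cumulative share (y axis, percent) of autophagy, V0 and V1 genes and of all 15415 features by mean log2 ratio of sva53 over sva53/+ (x axis). The autophagy line (median 0.0067) follows that of all features through the middle, the V0 line lies close by (median -0.018), and the V1 line is shifted to the left (median -0.14).

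By the median and the signs of the means, autophagy genes as a group did not lean to either side. Of 19 genes, 1 rose (Atg7), 1 fell (Atg101) and 17 did not pass, which is 10.5% called beside 13.9% of all features. Means were below 0 for 9 genes and above 0 for 10, the median was 0.0067, and the range was -0.27 to 0.41. On all 3 arrays 8 genes (42.1%) were above 0, against 28.9% of all features, and 6 (31.6%) below, against 29.9%.

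Atg7, the E1-like enzyme that activates both Atg8 and Atg12, read 0.42, 0.44 and 0.37 on arrays 1, 2 and 3. It rose by 0.41 ± 0.035 (SD, n = 3; 1.33-fold, 95% interval 0.28 to 0.54, adjusted p 0.0346 with limma), and its 2 features gave 0.46 and 0.36. All pools lay above the control and close to each other. The enzymes and proteins downstream of it did not pass. Atg3, the E2-like enzyme for Atg8, averaged -0.036 ± 0.02 (95% interval -0.17 to 0.093). Atg10, the E2-like enzyme for Atg12, averaged -0.11 ± 0.03, and Atg12 and its acceptor Atg5 averaged 0.08 ± 0.015 and 0.12 ± 0.13.

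The Atg8 genes encode the ubiquitin-like proteins that coat the autophagosome membrane. Atg8a read -0.19, -0.11 and -0.12, all below the control, and its mean of -0.14 ± 0.045 did not pass (adjusted p 0.129 with limma). Atg8b, known for its role in the male germ line, read -0.31, 0.087 and 0.028, on both sides of 0. The Atg4 proteases, which process Atg8, averaged 0.096 ± 0.059 for Atg4a and -0.039 ± 0.11 for Atg4b.

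In the initiation complex, Atg101, a partner of Atg13, read -0.31, -0.26 and -0.25, all below the control. It fell, with a mean of -0.27 ± 0.033 (SD, n = 3; 1.21-fold lower, 95% interval -0.40 to -0.14, adjusted p 0.0444 with limma). Its features disagreed in size, at -0.48 and -0.062; the second is the less variable one, and with it alone the call was lost. Atg17, the scaffold that corresponds to mammalian FIP200, read -0.21, -0.16 and -0.26 and did not pass (mean -0.21 ± 0.05, adjusted p 0.0706 with limma). The kinase gene Atg1 (0.017 ± 0.13) and Atg13 (0.0067 ± 0.048) did not pass, with 95% intervals of -0.18 to 0.21 and -0.13 to 0.15.

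Among the 6 genes of the lipid kinase and of membrane supply, 0 passed, while 4 were above 0 on all 3 arrays and 1 was below. Unadjusted p-values of limma were under 0.05 for these 4, in a background where 18% of all features had such a p and a positive mean. Atg6, the fly Beclin 1 of the lipid kinase complex, read 0.54, 0.40 and 0.14 (mean 0.36 ± 0.20, adjusted p 0.0825 with limma). Its partner Atg14, which directs the complex to the autophagosome, averaged 0.23 ± 0.12. Atg18a and Atg18b, which bind the lipid made by that kinase, averaged 0.18 ± 0.05 and 0.29 ± 0.11 (adjusted p 0.086 and 0.0587 with limma). The features of Atg18b differed in size, at 0.48 and 0.11. Atg9, a transmembrane protein of the growing membrane, read -0.18, -0.11 and -0.081, below the control on each array. Its features gave -0.24 and -0.0085, and the second was above 0 on array 3. Atg2, a lipid carrier, read -0.36, 0.023 and 0.13 and averaged -0.07 ± 0.26.

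**Figure D4:**
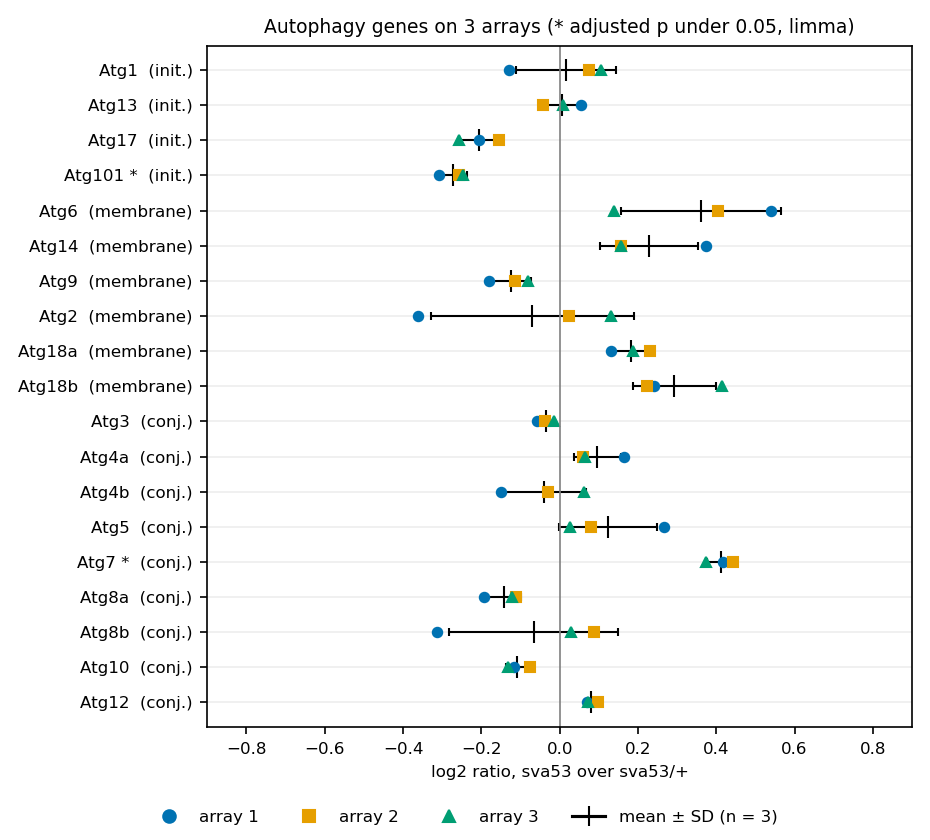
Log2 ratio of sva53 over sva53/+ (x axis) for each autophagy gene, ordered by step (initiation, membrane supply, conjugation), with points for the 3 arrays and a bar for the mean ± SD. Atg7 stands highest, at 0.41 with its arrays close together, Atg101 is lowest at -0.27, and Atg6, Atg14, Atg18a and Atg18b sit right of 0 on all arrays.

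Over all 45 members, 2 rose and 5 fell, so 15.6% were called, near the 13.9% of all features. None reached 0.5 log2, a size that 8.82% of all features reached. Another 8 members had an adjusted p between 0.05 and 0.1 in limma, 5 of them below 0 and 3 above. With any 1 array left out limma called 0 of 15415 features, among them 0 members, while 4710, 3277 and 4304 features had an unadjusted p under 0.05 without array 1, 2 and 3. All 7 called members had 1 sign on all 3 arrays, so leaving out 1 array could not turn it. Their unadjusted p of limma lay between 0.00423 and 0.0414 in these fits. They were called from the same arrays, so these values give no separate support for the calls. Of 32 members with several features, 9 had features on opposite sides of 0, all of them among the genes that were not called. Features of opposite sign pull the average that was tested towards 0, so this gives no support for the calls.

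Other genes of the pathway were read from the same fit. Of 17 measured genes that act with the Atg proteins, 2 rose, 2 fell and 13 did not pass, which is 23.5% called beside 13.9% of all features. Rubicon, known in mammals as an inhibitor of the lipid kinase complex and of autophagosome maturation, read 0.67, 0.46 and 0.46 and rose by 0.53 ± 0.12 (SD, n = 3; adjusted p 0.0352 with limma). The BEACH-domain gene bchs, linked to clearance of protein aggregates, rose by 0.42 ± 0.027 (adjusted p 0.0344 with limma). Tango5, the fly Vmp1 of the endoplasmic reticulum, read -0.44, -0.33 and -0.37 (mean -0.38 ± 0.06, adjusted p 0.0357 with limma). The gene car, which encodes the Vps33A subunit of the tether that joins autophagosomes to lysosomes, averaged -0.28 ± 0.027 (adjusted p 0.0428 with limma). Both fell, and the median of the list was 0.065.

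Of 27 measured lysosome genes, 1 fell, 0 rose and 26 did not pass, which is 3.70% called beside 13.9% of all features. Npc2a, a carrier of sterols out of the lysosome, read -1.20, -0.58 and -0.68 (mean -0.82 ± 0.33, adjusted p 0.0451 with limma). Before adjustment, limma gave 11 of the 27 a p under 0.05 with a negative mean and 4 with a positive one, where 18.3% and 18% of all features had such values. Averaged over the list, the ratio was -0.32, -0.13 and -0.057 on arrays 1, 2 and 3. The medians were closer together, at -0.19, -0.15 and -0.091, and the median of the gene means was -0.12.

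Among 23 regulators of nutrient sensing and TOR signalling, 2 rose, 0 fell and 21 did not pass (8.70% called, beside 13.9% of all features), with a median of 0.058. Sesn, the sestrin that restrains TORC1, read 0.49, 0.39 and 0.50 (mean 0.46 ± 0.06, adjusted p 0.0344 with limma). The kinase gene Akt averaged 0.28 ± 0.027 (adjusted p 0.043 with limma). The gene of the TOR kinase itself, mTor, read -0.11, 0.093 and 0.19 and did not pass.

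**Figure D5:**
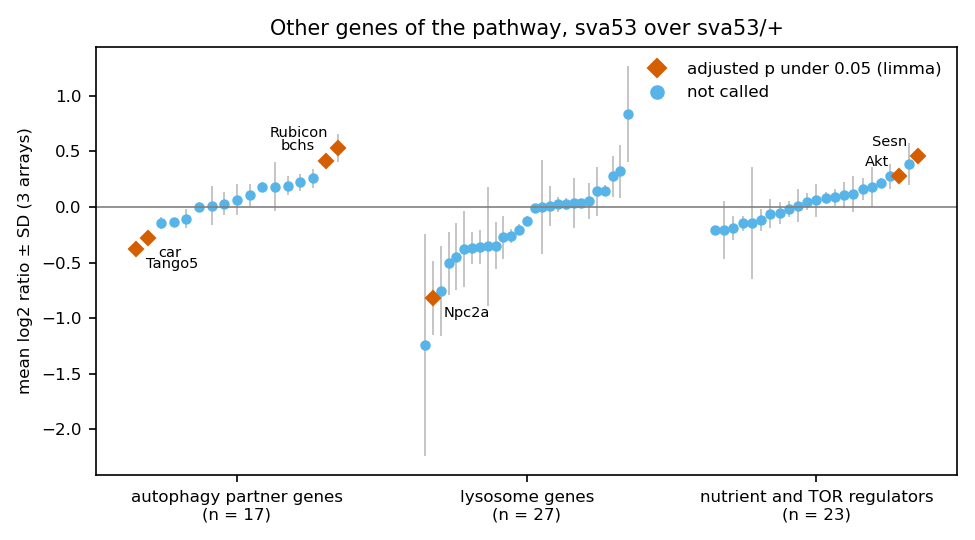
Mean log2 ratio of sva53 over sva53/+ with its SD over 3 arrays (y axis) for genes that act with Atg proteins, lysosome genes and regulators of nutrient sensing, each ordered by mean, where diamonds passed an adjusted p under 0.05 in limma. Rubicon (0.53), bchs, Sesn and Akt stand above 0, and Tango5, car and Npc2a (-0.82) below.

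Markers of other cells were read beside these genes. The 7 measured eggshell genes of late follicle cells averaged -2.85 on array 1, -0.26 on array 2 and -0.072 on array 3, with 0 called, and the 3 yolk protein genes averaged -1.47, -0.088 and 0.11, also with 0 called. Germline markers averaged -0.15, -0.057 and 0.063 (0 of 6 called). Without array 1, VhaPPA1-1, Vha44, Vha36-1, VhaM9.7-b and Vha14-2 averaged -0.40, -0.39, -0.49, -0.32 and 0.43, in a fit that called 0 of 15415 features. These V-ATPase genes were picked as called with all 3 arrays and had 1 sign on each. Their side of 0 was therefore fixed beforehand, and no conclusion on the markers is drawn from it. Of 8 testis genes 4 were called lower, at means from -1.47 (S-Lap2) to -0.51 (S-Lap8), and of 6 fat body genes 3 were, at -1.80 (Pepck1), -1.71 (Lsd-1) and -1.52 (Obp99b), beside 7.23% of all features. These 7 genes were below 0 on all 3 arrays, and each mean lay farther from 0 than that of any autophagy or V-ATPase gene. The other genes of both lists were not called. In the testis list comr (-0.31) and can (-0.14) averaged below 0, and aly (0.034) and mia (0.11) above. In the fat body list Fbp1 averaged -0.027, Lsp2 0.39 and Fbp2 0.50. Of 6 midgut genes, Jon65Aiv (-1.27) and Jon44E (-0.35) were called lower and etaTry (0.42) higher, and hemocyte and muscle genes had 0 of 4 called each. The part of these markers in the V-ATPase and autophagy ratios was not tested.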

How the data were processed

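The deposited values were log10 ratios of both channels, 1 per feature and array, made with Agilent Feature Extraction 7.1 per the submitters' processing notes. How background and dyes were corrected is not stated in the labels used here, and without signals no filter on dim features was possible. A lowest value of exactly -2, values of both signs and exact zeros gave the scale. Per the labels, 100 ng of total RNA was amplified linearly and labelled. The number of arrays limits the precision.

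The 636 features at the grid edge, 0 of them annotated, were left out. The sign was turned, values were converted to log2, and features of 1 gene were averaged on each array. The platform annotation named 17329 features with 1 gene, 326 with several genes or no symbol, and 4284 were not listed. All 45 members matched RefSeq by identifier.

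The mean of every feature was set against 0 using limma 3.58.1 under R 4.3.3 (intercept, eBayes, 2-sided) with Benjamini-Hochberg adjustment. The procedure was tested on simulated data. Every member could be named; array values are given for called members and the member of largest mean in each role, and also for Atg17, Atg8a, Atg8b, Atg9, Atg2, Vha14-1 and VhaAC39-2, chosen after their values were seen, and from other lists up to 3 called genes on each side. Members and lists were chosen with earlier results of these data known. mTor was added after its value was seen. The planned promoter and protein comparisons were not run, and no sequence is printed. Alternatives were centring, scaling, a robust prior, array weights, the feature of smallest SD, removal of exact zeros, stricter tests, removal of grid trends, and leaving out each array.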

Additional observations from a re-analysis of the deposited data

How the results depend on the processing

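The counts called, the means of the 45 members and the medians of the autophagy, V0 and V1 genes were computed with other settings and with each array left out. A robust prior and the stricter tests do not alter a median and gave none. Differences between paralogs, the epithelial grouping, marker lists, single genes and medians of the other lists were not recomputed. Array weights, which gave array 2 a weight of 3.42 against 0.438 and 0.666 for arrays 1 and 3, moved the counts called to 5804 of all features, 7 autophagy genes, 5 V0 genes, 6 V1 genes, 9 partner genes, 12 lysosome genes and 7 nutrient regulators, and the V1 median to -0.17. The feature of smallest SD per gene gave 3418 of all features, 4 autophagy, 7 V1 (7 lower, 0 higher), 5 lysosome and 5 nutrient genes, and a V1 median of -0.30. An adjusted p under 0.01 left 0 calls among all features and in each list, where 5588 features had an unadjusted p under 0.05 in limma. A test against a fold of 1.5 left 15 features and 0 in each list, so no member was shown to exceed that fold. Lysosome genes called numbered 5 with scaled arrays, 2 with exact zeros removed and 3 with grid trends removed, and the V1 median without grid trends was -0.096. Without any 1 array the calls ranged from 0 to 0 in each list and over all features, as 2 arrays leave few degrees of freedom; the V0 median ranged from -0.079 to 0.00997.

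Of the called members, Atg7, VhaPPA1-1, VhaM9.7-b and Vha44 kept sign and call in 7 of 9 settings, losing the call with the 2 stricter tests. Vha36-1 also lost it with scaled arrays, Atg101 with the feature of smallest SD, and Vha14-2 with that feature and without exact zeros. Vha14-1 was called lower with scaled arrays (-0.37), array weights (-0.35), the feature of smallest SD (-0.41) and without grid trends (-0.39). Some members that were not called changed sign, and none was called under the setting that turned its sign. Of these, VhaM9.7-c was called lower with the feature of smallest SD (-0.19). With array weights Atg13 read -0.026, Atg2 0.0016, Atg8b 0.039 and Vha100-2 -0.0016. With the feature of smallest SD Atg13 read -0.045, Atg4a -0.021 and Vha100-1 -0.0019. Without grid trends Vha100-1 read -0.0086, Vha16-5 0.0044 and VhaM9.7-c 0.0073. With 1 array left out, signs also changed for Atg1 (-0.027 to 0.0896), Atg13 (-0.017 to 0.031), Atg2 (-0.17 to 0.077), Atg4b (-0.0896 to 0.016), Atg8b (-0.14 to 0.057), Vha16-1 (-0.015 to 0.098), Vha16-5 (-0.079 to 0.0302), VhaM9.7-a (-0.0012 to 0.15), VhaM9.7-c (-0.036 to 0.00997) and VhaM9.7-d (-0.16 to 0.094). The cause of these shifts was not tested. No paired analysis was possible because every array carries the same control RNA and there is 1 group of pools.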
